A study of Mus musculus with 24 samples.

Results

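The SOCS, Cish and Pim feedback genes are 6 genes that cytokine signals switch on in T cells: Cish, Socs1, Socs2, Socs3, Pim1 and Pim2. They were taken by name from the array annotation, and 8 of the 55681 probes matched them, 3 for Socs2 and 1 for each of the others, among 20028 genes with a symbol. All 6 were measured on all 24 arrays and all passed the filter on low signal in every comparison.

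Each array held RNA of female C57BL/6 mouse T helper cells, polarized in vitro to Th1 or Th2 cells and carrying the Cy3 dye. The Cy5 dye marked a common reference, RNA of naive CD4+CD62L+CD25-CD44lo T cells from lymph nodes and spleens. The cells had received DMSO (the vehicle), JQ1 at 50 or 500 nM or flavopiridol at 1 or 10 µM, and each treatment was measured unstimulated and reactivated. JQ1 displaces BET bromodomain proteins from acetylated chromatin, and flavopiridol inhibits P-TEFb, the kinase that releases paused RNA polymerase II into elongation. Treatment lasted 6 hr. A 24 hr point exists for Th1 cells given DMSO or 500 nM JQ1, and the time of the 2 Th2 DMSO arrays is unclear because their labels give both times. That uncertainty touches each comparison with Th2 DMSO cells, and each condition was 1 array with no replicate.

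Cytokines such as IL-2, IL-4 and interferon-γ bind receptors that carry JAK kinases, which phosphorylate STAT transcription factors. STATs then activate, among other genes, Cish and the Socs genes, whose proteins carry an SH2 domain and a SOCS box and damp the same receptors. They also activate the Pim genes, which encode serine/threonine kinases that are active as soon as they are made and promote growth and survival of lymphocytes. In T helper cells Socs1 is known as a brake on interferon-γ signalling, Socs3 on receptors that use gp130, and Cish and Socs2 as STAT5 targets.

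Short promoter windows are shown because transcription of these genes starts there. No motif was compared with a drug response, and sites outside these windows were not searched. RefSeq (GRCm38.p6) gave the 250 bases before a start for 5 of the 6 genes; Socs2 had none. In these windows, on either strand, TTCNNNGAA, the core of a STAT site, matched only before Socs3, as TTCTTAGAA, 154 to 146 bases before the start. Of all 32851 RefSeq windows of this length 7.02% held that motif. The STAT6 form of that motif, with 1 more free base (5.85% of all windows), the AP-1 motif TGANTCA (6.75%), the CRE motif TGACGTCA (1.55%) and the NF-κB motif (1.41%) matched in none of them. GGGCGG, the core of a GC box (32.7% of all windows), matched 7 times before the first of 2 annotated Pim1 starts and not before the second, 2 times each before Cish and Socs1, and 1 time each before Socs3 and Pim2. Capitals mark matches to TTCNNNGAA and to GGGCGG on either strand. The windows of Socs3 (chr11:117969367-117969616, minus strand), Socs1 (chr16:10785537-10785786, minus strand), Cish (chr9:107296409-107296658, plus strand) and the first Pim1 start (chr17:29490535-29490784, plus strand) were, each 5′ to 3′:
Socs3: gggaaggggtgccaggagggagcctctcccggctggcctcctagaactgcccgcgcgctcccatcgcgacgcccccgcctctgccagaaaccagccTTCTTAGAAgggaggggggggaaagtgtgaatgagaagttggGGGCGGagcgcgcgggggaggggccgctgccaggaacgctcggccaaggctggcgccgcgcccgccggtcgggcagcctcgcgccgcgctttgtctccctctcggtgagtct
Socs1: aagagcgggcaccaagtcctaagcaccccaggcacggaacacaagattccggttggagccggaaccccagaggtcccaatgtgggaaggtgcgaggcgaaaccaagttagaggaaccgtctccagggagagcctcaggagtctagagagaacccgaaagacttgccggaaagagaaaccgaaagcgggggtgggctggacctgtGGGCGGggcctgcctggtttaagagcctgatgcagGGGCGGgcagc
Cish: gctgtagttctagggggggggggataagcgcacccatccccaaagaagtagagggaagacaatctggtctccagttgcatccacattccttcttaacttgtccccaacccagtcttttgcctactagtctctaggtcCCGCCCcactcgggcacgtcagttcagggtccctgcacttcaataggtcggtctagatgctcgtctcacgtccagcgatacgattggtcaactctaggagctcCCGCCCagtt
Pim1: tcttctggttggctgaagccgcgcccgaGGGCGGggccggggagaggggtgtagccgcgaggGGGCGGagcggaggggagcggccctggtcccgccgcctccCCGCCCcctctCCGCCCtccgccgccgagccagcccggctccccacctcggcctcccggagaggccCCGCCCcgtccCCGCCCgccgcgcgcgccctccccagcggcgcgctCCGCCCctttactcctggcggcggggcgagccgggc
A match in a window is a description of letters, not a measured binding site.

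Against naive cells the 6 genes took 3 positions. Values are log2 ratios of T helper over naive cells after loess, which places most genes of an array around 0. Socs2 was above naive cells on all 24 arrays, from 3.30 to 5.46 with a median of 4.27. Its naive signal was faint, well above background on 19 of the 24 arrays, so no exact fold over naive cells is given. Its other probes gave 2.55 to 4.93 and 2.31 to 4.36, and averaging its 3 probes changed none of its calls. Socs3 lay on the other side, below naive cells on all 24 arrays, from -2.64 to -0.09 with a median of -1.09. Cish ranged from -0.76 to 4.58 (median 2.30), Pim1 from -0.78 to 3.39 (median 1.86), Socs1 from -2.10 to 2.37 (median 1.14) and Pim2 from -0.16 to 2.20 (median 1.08). The naive channel itself moved little between arrays, by 0.30 for Socs1 to 0.53 for Cish between the lowest and the highest of its 24 values. In bulk RNA, fewer cells of a type and less RNA per cell cannot be told apart.

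**Figure D1:**
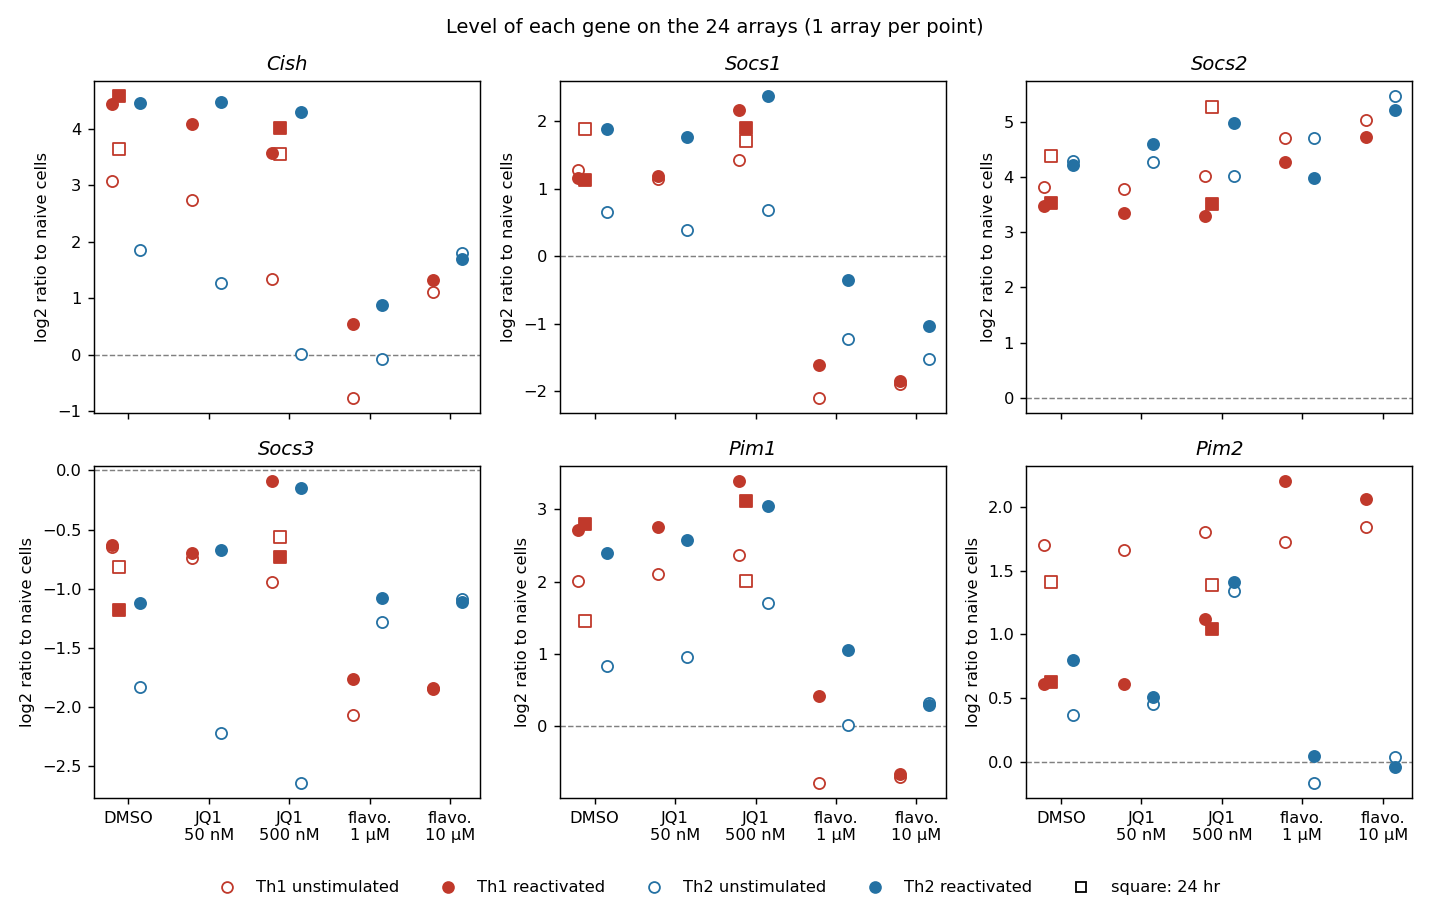
Log2 ratio to naive cells (y axis) of each gene on the 24 arrays, by treatment (x axis); red, Th1; blue, Th2; open, unstimulated; filled, reactivated; squares, 24 hr; each point is 1 array. Socs1 is below 0 on all 8 flavopiridol arrays, Socs2 is above 3 and Socs3 below 0 on every array, and Th1 and Th2 Pim2 values separate under flavopiridol.

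The arrays carried T cell markers, and markers of the other lineage appeared on reactivated arrays of both cell types without flavopiridol. The T cell genes Cd3d, Cd3e, Cd3g and Cd4 were well above background on 24 of 24 arrays, and the NK cell genes Klrb1c and Ncr1 were above it on 0 and 1. Of 4 myeloid markers, Lyz2 and Cd14 were above background on 0 and 3 arrays, but Itgam and Csf1r on all 24. On the unstimulated Th2 DMSO array the Th1 genes Tbx21, Ifng and Cxcr3 lay at -0.02, 0.65 and -0.06, but on the reactivated one they lay at 4.64, 6.20 and 4.11, beside Th1 values of 6.11, 8.59 and 4.75. The other 2 Th1 genes, Il12rb2 and Il18r1, stayed below naive cells on both Th2 DMSO arrays, at -0.28 and -2.74 unstimulated and -0.20 and -3.73 reactivated. In turn, the Th2 genes Il4, Il13 and Il1rl1 lay at 3.07, 3.71 and 5.51 on the reactivated Th1 DMSO array at 6 hr, beside 8.02, 4.85 and 3.91 on the reactivated Th2 one. The other 2 Th2 genes, Gata3 and Il5, lay at -0.33 and 0.46 on that Th1 array and at 2.64 and 3.66 on the Th2 one, and Il1rl1 was at 2.42 in unstimulated Th1 cells. The summed signal of 5 Th1 markers was 8.69 to 9.33 (log2) in unstimulated and 10.8 to 13.16 in reactivated Th2 cells without flavopiridol, and 18.42 to 19.43 in such reactivated Th1 cells. The summed signal of 5 Th2 markers was 10.1 to 11.14 in unstimulated and 10.86 to 13.27 in reactivated Th1 cells, and 14.6 to 15.18 in reactivated Th2 cells. The summed signal of 4 B cell markers was higher on Th2 arrays, 11.04 to 12.21 without flavopiridol, against 9.1 to 10.46 on Th1 arrays. Both CD8 T cell markers were higher on Th1 arrays, Cd8a by 1.36 (adjusted p = 0.00056) and Cd8b1 by 0.35 (adjusted p = 0.00638), with signal above background on 13 and 21 of the 24 arrays. The part of any of these in the Th1 and Th2 results was not tested. Arrays sat on 3 slides: both arrays of a reactivation pair always shared one, Th1 JQ1 shared its control's slide, and Th2 JQ1 and all flavopiridol arrays did not.

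Without drug, reactivation raised Cish and Pim1. The comparison asks how renewed stimulation changes these genes, and was fitted on 3 pairs of DMSO arrays. Cish rose from 3.07 to 4.44 in Th1 cells at 6 hr, from 3.64 to 4.58 at 24 hr and from 1.85 to 4.45 in Th2 cells. Its 3 reactivated arrays lay between 4.44 and 4.58, above all unstimulated ones, and the fitted rise was 1.64 ± 0.31 (log2, SE, 3 pairs; limma adjusted p = 0.00556), or 3.11-fold. Pim1 rose from 2.01 to 2.71, from 1.46 to 2.79 and from 0.84 to 2.40 in the same order, by 1.20 ± 0.19 (adjusted p = 0.00292), or 2.29-fold. Reactivated Pim1 values also lay above every unstimulated one. How many other genes separate in this way was not counted.

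The other 4 genes did not pass the test, and 2 of 6 members called stands beside 50.9% of 12547 genes called, 22.1% higher and 28.8% lower. Of those calls 43.4% were higher, against 63.5% and 66.1% with spike-in centring and shift. Socs1 went from 1.28 to 1.16 and from 1.88 to 1.13 in Th1 cells but from 0.66 to 1.89 in Th2 cells, a fitted 0.12 ± 0.35. Socs3 gave differences of 0.02, -0.35 and 0.71, a fitted 0.13 ± 0.21. Socs2 differed by -0.34, -0.85 and -0.07 (fitted -0.42 ± 0.17, adjusted p = 0.0887) and Pim2 by -1.09, -0.78 and 0.42 (fitted -0.48 ± 0.29, adjusted p = 0.209). Without the Th2 pair, or either of its arrays, Pim2 was called at -0.93 (adjusted p = 0.00417) and Socs2 at -0.59 (adjusted p = 0.0336). With median centring Socs2 was called as well, at -0.51 (adjusted p = 0.0282).

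Around them the pathway moved in several directions on reactivation, and its lists stand beside 22.1% of all genes higher and 28.8% lower. Cytokines that signal through JAK-STAT rose in 10 of 13 and fell in 0, with Il3 at 7.61, Csf2 at 6.49, Il2 at 6.24 and Il4 at 3.92, and the median of the list was 2.78 against -0.05 for all genes. Cytokine receptor chains rose in 3 and fell in 9 of 17 (median -0.47), among them Ifngr1, the interferon-γ receptor chain that binds the ligand, at -3.08, and Il7r at -1.93. JAK and STAT genes rose in 2 and fell in 7 of 11 (median -0.70): Jak2 rose by 2.64 and Stat5a, a factor downstream of IL-2, by 2.54, while Stat4 was at -1.25 and Jak1 at -1.05, both lower. Of the other SOCS and PIM genes 3 of 5 rose, Pim3 by 1.47, Socs4 by 0.75 and Socs6 by 0.64. Other brakes on the pathway rose in 1 and fell in 3 of 9 (Ptpn6, the phosphatase SHP-1, at -2.29 and Sh2b3 at 1.76). SOCS box ligase parts rose in 3 of 6 (Cul5 at 1.03), other STAT5 targets rose in 3 and fell in 2 of 7 (Myc at 3.31 and Bcl2l1 at 2.18), and PIM substrates rose in 1 and fell in 3 of 10 (Cdkn1b, the cell cycle inhibitor p27, at -2.82).

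**Figure D2:**
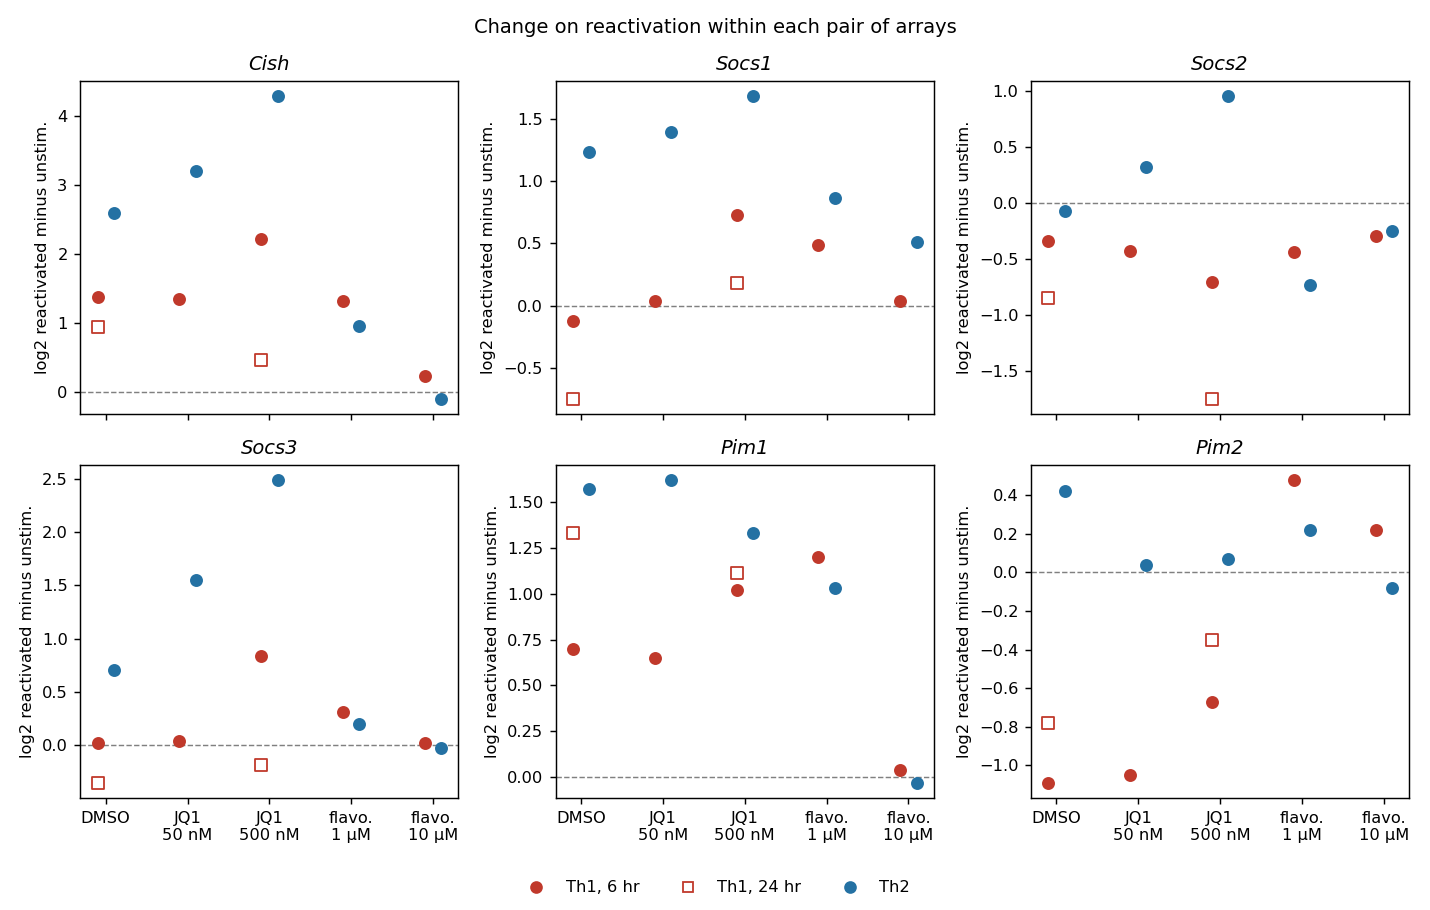
Log2 difference of reactivated minus unstimulated cells (y axis) within each of the 12 pairs of arrays, by treatment (x axis); red, Th1; blue, Th2; open squares, Th1 at 24 hr; each point is 1 pair. Cish and Pim1 are above 0 in 11 of 12 pairs, and with 10 µM flavopiridol both lie between -0.11 and 0.22.

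At 10 µM flavopiridol, Socs1, Pim1 and Cish fell and Socs2 rose relative to the bulk of genes, and Socs3 and Pim2 did not pass the test. The comparison asks how these transcripts change under flavopiridol, over 4 contexts: unstimulated and reactivated Th1 and Th2 cells. The drug arrays and the Th1 controls were of 6 hr, and the time of the Th2 controls was unclear. These 4 of 6 members called stand beside 49% of 12461 genes called, 15.4% higher and 33.6% lower. Fewer probes were well above background in the sample channel of the 8 flavopiridol arrays, 35.5% to 41.5% against at least 43.8% on the others. No flavopiridol array shared a slide with its DMSO control, and the 8 arrays without flavopiridol on the same slides had 47.6% to 50.8% of probes above background. The part of slide in the flavopiridol results was not tested apart from the random block.

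Socs1 fell most. With 10 µM flavopiridol it lay at -1.89 and -1.85 in unstimulated and reactivated Th1 cells and at -1.53 and -1.03 in Th2 cells, where DMSO cells had 1.28, 1.16, 0.66 and 1.89. All 8 flavopiridol arrays, -2.10 to -0.36, lay below all 16 others, of which the lowest was 0.38. The number of other genes with such a split was not counted. On the flavopiridol slides themselves, Socs1 lay at 0.38 to 2.37 on the Th2 JQ1 arrays and at 1.13 to 1.90 on the Th1 24 hr arrays. The fall was 2.83 ± 0.23 in the log2 fit (SE, 4 contexts; adjusted p = 4.44e-05), so the gene went from above to below its naive level.

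Pim1 fell by 2.18 ± 0.41 (adjusted p = 0.00248). It lay at -0.70 and -0.66 in Th1 cells and at 0.32 and 0.30 in Th2 cells at 10 µM, against DMSO values of 2.01, 2.71, 0.84 and 2.40. The change was unequal over contexts, from -3.37 in reactivated Th1 cells to -0.51 in unstimulated Th2 cells.

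Cish fell by 1.97 ± 0.44 (adjusted p = 0.0057) at 10 µM and by 3.30 ± 0.44 (adjusted p = 0.000323) at 1 µM. At 10 µM it lay at 1.11 and 1.33 in Th1 cells and 1.81 and 1.70 in Th2 cells, while at 1 µM it lay lower in each context, at -0.76, 0.55, -0.07 and 0.88. The change at 10 µM was -1.97 and -3.11 in unstimulated and reactivated Th1 cells, and -0.04 and -2.75 in Th2 cells, so the fall was seen in 3 of the 4 contexts. The difference of the doses, 1.34 higher at 10 µM (95% interval 0.347 to 2.329), did not pass (adjusted p = 0.23; 1.86% of genes called).

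Socs2 rose by 1.15 ± 0.19 (adjusted p = 0.00111) under loess, with changes of 1.00 to 1.23 in the 4 contexts, but was at -0.07 with median centring, -0.66 when arrays were centred on spike-in RNA (adjusted p = 0.0352) and 0.02 when loess values were shifted by the spike-ins. The median of all genes moved from -0.225 to -1.06, -1.648 and -1.353 under these scalings, and the 4 Th2 arrays with flavopiridol had spike-in values of 0.763 to 0.991. Calls were then 3.26%, 0.212% and 1.13% higher, against 31.5% as analysed. So Socs2 held its level better than the bulk of genes, and whether it rose in absolute terms depends on the scaling. Socs1, Pim1 and Cish were called lower under each of these scalings.

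Socs3 changed by -1.21 in both Th1 contexts and by 0.74 and 0.00 in unstimulated and reactivated Th2 cells, with a fitted -0.42 ± 0.34 (adjusted p = 0.334). It was called lower with median centring (-1.47), with spike-in centring (-2.06), with the shift (-1.55) and in the Th1 contexts alone (-1.21). Without the unstimulated Th2 DMSO array it was called at -0.78 (adjusted p = 0.042). Pim2 changed by 0.13 and 1.44 in Th1 cells and by -0.33 and -0.84 in Th2 cells, a fitted 0.10 ± 0.36 (adjusted p = 0.837), and was called lower with spike-in centring only (-1.33, adjusted p = 0.00591).

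The lower dose gave the same 3 falls. At 1 µM 51.8% of genes were called, 16.2% higher and 35.6% lower. Of those calls 31.4% were higher, against 4.58%, 0.452% and 2% with median centring, spike-in centring and shift. Socs1 fell by 2.57 ± 0.23 (adjusted p = 4.1e-05) and Pim1 by 1.81 ± 0.41 (adjusted p = 0.00555), while Socs2 was at 0.46 ± 0.19 (adjusted p = 0.0638), Socs3 at -0.49 and Pim2 at 0.08. Socs2 was called at 0.60 to 0.70 without the reactivated Th2 DMSO array, the reactivated Th2 array with 1 µM flavopiridol or the whole reactivated Th2 context, and Socs3 at -0.86 without the unstimulated Th2 DMSO array (adjusted p = 0.0283). At 1 µM Socs2 was also called higher with the scanner software's ratio (1.05, adjusted p = 0.00195) and an offset of 16 (0.69, adjusted p = 0.0138), but lower with spike-in centring (-1.01, adjusted p = 0.00519). Socs3 was called lower after median centring (-1.37), spike-in centring (-1.87) and the shift (-1.40), and Pim2 after spike-in centring (-1.13, adjusted p = 0.0149). No member differed between the doses by the adjusted test. Socs2 was 0.69 higher at 10 µM (95% interval 0.265 to 1.108, adjusted p = 0.133).

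**Figure D3:**
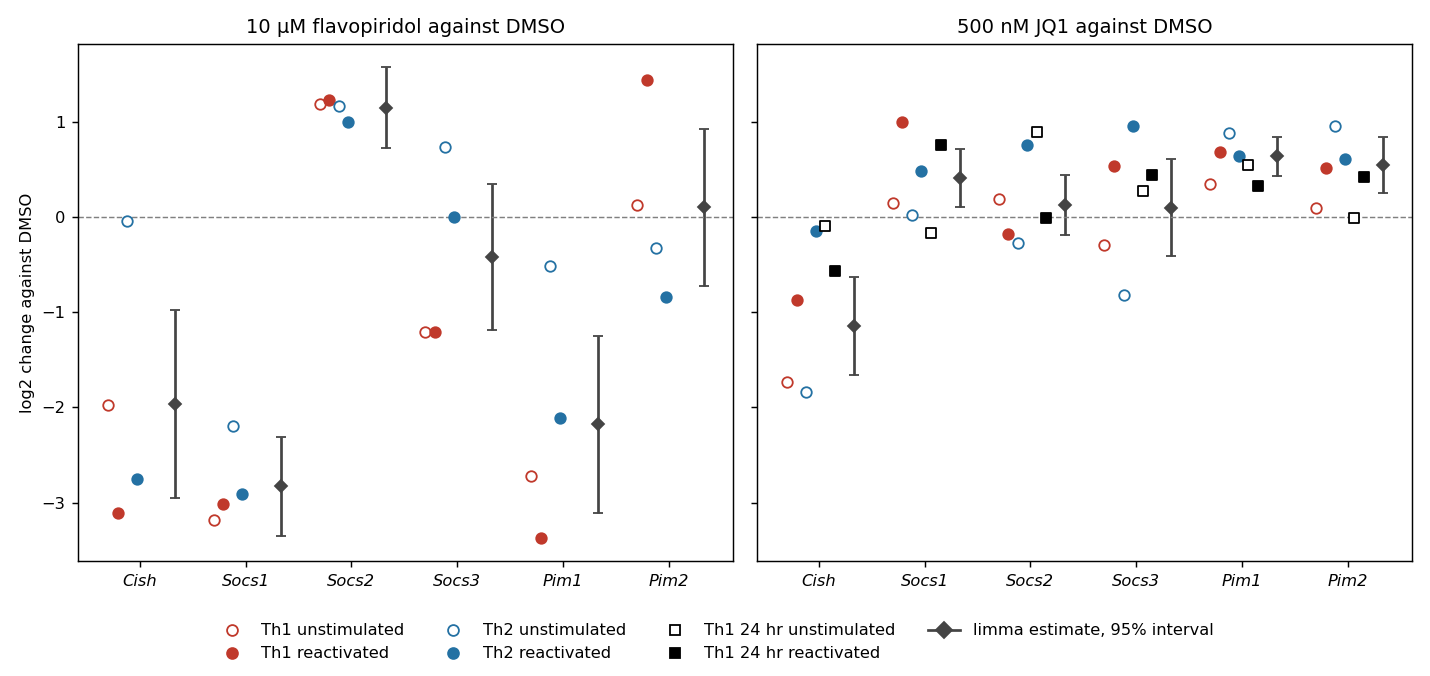
Log2 change against DMSO (y axis) of each gene (x axis) with 10 µM flavopiridol (left) and 500 nM JQ1 (right); circles are the 4 contexts at 6 hr (Th2 controls of unclear time), squares are Th1 cells at 24 hr, which the fit did not use, and diamonds with bars are the limma estimate with its 95% interval. On the left Socs1, Pim1 and Cish are below 0 in all 4 contexts, Cish by little in unstimulated Th2 cells (-0.04), while on the right only Cish is below 0 in all 6 contexts shown.

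With 10 µM flavopiridol the pathway lists stand beside 33.6% of all genes lower and 15.4% higher. Of the other SOCS and PIM genes 4 of 5 fell and 0 rose, Pim3 (-1.94), Socs7 (-1.83), Socs4 (-0.91) and Socs6 (-0.91), with a list median of -0.91 against -0.22 for all genes. Other STAT5 targets fell in 4 of 7 and rose in 1 (Mcl1, a short-lived survival protein, at -3.26, and Myc at -2.73), and cytokines fell in 4 of 12 and rose in 0 (Il3 at -4.47, Il2 at -3.88). JAK and STAT genes fell in 6 and rose in 1 of 11 (Jak2 at -2.88, Jak3 at 1.29), and receptor chains fell in 2 and rose in 3 of 17 (Il27ra at 1.47, Il2ra at 1.21). Other brakes fell in 5 of 9 (Sh2b3 at -2.29, Ptpn2 at -1.93), SOCS box ligase parts in 3 of 6 (Rbx1 at -1.15) and PIM substrates in 4 of 10 (Foxo1 at -2.20), with 0 higher in each. These rises, like that of Socs2, are relative to the bulk of genes.

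Reactivation responses of Cish and Pim1 were still present at 1 µM and close to 0 at 10 µM. Cish differed by 1.31 in Th1 and 0.95 in Th2 cells with 1 µM flavopiridol, and by 0.22 and -0.11 with 10 µM. Pim1 differed by 1.20 and 1.03 at 1 µM and by 0.04 and -0.03 at 10 µM. In DMSO cells the differences were 1.37 for Cish and 0.70 for Pim1 in Th1 cells at 6 hr, and 2.60 and 1.57 in Th2 cells. The difference between the doses, tested after it was seen, was -1.07 for Cish (95% interval -2.53 to 0.384) and -1.11 for Pim1 (-2.865 to 0.644), both with an adjusted p of 1, and 0% of genes were called (266 at an unadjusted p below 0.05).

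Whether the effect of 10 µM flavopiridol differed between reactivated and unstimulated cells was called for 0 members, beside 15.8% of genes, 8.87% higher and 6.98% lower. Of those calls 55.9% were higher, against 34.4% of 259 and 17.2% of 93 calls with spike-in centring and shift. Cish came nearest, at -1.93 ± 0.62 (adjusted p = 0.0792), and was called at -2.89 without the unstimulated Th1 DMSO array (adjusted p = 0.00603) and at -1.93 with slide as a random block (adjusted p = 0.00979). Without that Th1 array Pim1 was called too (-2.17, adjusted p = 0.0378), and Pim2 was called without the reactivated Th2 DMSO array (1.55, adjusted p = 0.02). Between Th1 and Th2 cells the effect was called for 0 members and 0.0161% of genes, with Pim1 at -1.73 ± 0.60, Socs3 at -1.58 ± 0.30 and Pim2 at 1.38 ± 0.53. An unadjusted p below 0.05 in limma was reached by 3 members, beside 1613 of 12461 genes. The number of genes called depends on the scaling: 2 genes were called as analysed, against 1479 and 2175 with spike-in centring and shift, 99.5% and 99.6% of them higher, and with the shift Pim2 was called (2.28, adjusted p = 0.0417).

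With 500 nM JQ1, Cish was the only member that fell, and Pim1, Pim2 and Socs1 rose by small amounts relative to the bulk of genes. The comparison asks how they change under JQ1, over the same 4 contexts. These 4 of 6 members called stand beside 47.5% of 12926 genes, 17.7% higher and 29.8% lower.

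Cish fell by 1.15 ± 0.23 (adjusted p = 0.00224), or 2.21-fold. It went from 3.07 to 1.35 in unstimulated Th1 cells and from 1.85 to 0.01, its naive level, in unstimulated Th2 cells. In reactivated cells it went from 4.44 to 3.57 in Th1 and from 4.45 to 4.30 in Th2 cells. At 24 hr, in Th1 cells, the changes were -0.10 unstimulated and -0.57 reactivated, and the unstimulated level with JQ1 was 1.35 on the 6 hr array and 3.55 on the 24 hr array, beside 3.07 and 3.64 with DMSO. These are single arrays on different slides, and the difference between times was not tested.

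Pim1 rose by 0.64 ± 0.09 (adjusted p = 0.000299), with changes of 0.35 and 0.68 in unstimulated and reactivated Th1 cells, 0.88 and 0.64 in Th2 cells and 0.55 and 0.33 at 24 hr. Pim2 rose by 0.54 ± 0.13 (adjusted p = 0.00663), with 0.09, 0.51, 0.96 and 0.61 in that order, and Socs1 by 0.41 ± 0.14 (adjusted p = 0.0295), with 0.15, 1.00, 0.02 and 0.48. In unstimulated and reactivated Th1 cells at 24 hr, Pim2 differed by -0.01 and 0.42 and Socs1 by -0.17 and 0.76. All 3 rises are relative: for Pim1, Pim2 and Socs1 they were 0.28, 0.27 and 0.07 after median centring, 0.02, 0.01 and -0.20 relative to spike-ins, and 0.07, -0.02 and -0.15 after the shift by spike-ins, and none of them was then called. The median of all genes was -0.072 as analysed and -0.279, -0.541 and -0.639 under these scalings, and calls were 11.3%, 2.1% and 1.77% higher against 37.3%. Cish stayed called lower under each. Socs1 also lost its call without any one of the 4 reactivated arrays of DMSO or 500 nM JQ1 (0.24 to 0.40). Over all 26 alternatives Socs1 kept direction and call in 13, Pim2 in 21, Pim1 in 22 and Cish in 25. Without context as a block no member was called.

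Socs2 (0.13 ± 0.14) and Socs3 (0.10 ± 0.23) did not pass. Their changes went both ways, from -0.27 to 0.76 for Socs2 and from -0.82 to 0.96 for Socs3. At 24 hr Socs2 was 0.89 higher with JQ1 in unstimulated Th1 cells, at 5.26 against 4.37, and differed by -0.01 in reactivated ones.

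At 50 nM JQ1 no member was called by limma (0 also at an unadjusted p below 0.05), beside 0.302% of genes, 0.232% higher and 0.0696% lower. Cish was at -0.31 ± 0.23 with changes of -0.57 to 0.03, and the other 5 lay between -0.13 and 0.11. The doses differed for 4 members, beside 31.2% of genes: Cish was lower at 500 than at 50 nM, at -0.84 (adjusted p = 0.0192), and Pim2 was 0.60 (adjusted p = 0.00647), Socs1 0.55 (adjusted p = 0.0125) and Pim1 0.53 higher (adjusted p = 0.00188).

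With 500 nM JQ1 the cytokines, receptor chains and SOCS box ligase parts had genes lower and none higher, and the other lists had both, beside 29.8% of all genes lower and 17.7% higher. Cytokines fell in 11 of 13 (Il21 at -2.07, Il10 at -1.44) and receptor chains in 10 of 17 (Il7r at -1.85, Il21r at -1.43), with 0 higher in each list and medians of -0.93 and -0.55 against -0.07 for all genes. JAK and STAT genes fell in 6 and rose in 2 of 11 (Stat4 at -1.17, Stat5b at -0.62), and SOCS box ligase parts fell in 4 of 6 (Rnf7 at -0.53, Cul5 at -0.51). Of the other SOCS and PIM genes Socs7 (0.40) and Socs4 (0.28) rose and Socs5 fell (-0.31), of 5. Other brakes fell in 2 and rose in 1 of 9 (Ptpn6 at -1.41), other STAT5 targets rose in 3 and fell in 2 of 7 (Bcl2l1 at -0.98, Bcl6 at 0.68), and PIM substrates rose in 4 and fell in 1 of 10 (Cdkn1b at 1.04, Foxo3 at 0.62). These rises, like those of Pim1, Pim2 and Socs1, are relative to the bulk of genes.

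The JQ1 effect differed with stimulation for Socs3, Cish and Socs1, beside 10.1% of genes called, 4.5% higher and 5.62% lower. Socs3 changed by -0.29 and -0.82 in unstimulated Th1 and Th2 cells and by 0.54 and 0.96 in reactivated ones, a difference of 1.30 ± 0.22 (adjusted p = 0.00736). The opposite changes cancel in the overall JQ1 value of this gene. They were not seen in Th1 cells at 24 hr, outside the fit, where Socs3 changed by 0.27 unstimulated and 0.44 reactivated. For Cish the difference was 1.27 ± 0.22 (adjusted p = 0.00831), its fall in the fit being larger in unstimulated cells. At 24 hr, in Th1 cells outside the fit, the order was the other way, with -0.10 unstimulated and -0.57 reactivated. For Socs1 it was 0.66 ± 0.18 (adjusted p = 0.0495), and 0.37 with median centring, not called (adjusted p = 0.449). Pim1 (0.04), Pim2 (0.03) and Socs2 (0.33) did not pass, but were called lower with spike-in scalings, Pim1 and Pim2 with centring (-1.09 and -0.93) and all 3 with the shift (-1.16, -1.17 and -0.87).

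These 3 differences are relative to the bulk of genes. With spike-in centring they were 0.12, 0.15 and -0.50 for Socs3, Cish and Socs1, and with the shift 0.10, 0.07 and -0.54, none called, while the median of all genes moved from -0.015 to -1.036 and -1.213 and calls were 0.127% and 0.0456% higher, against 44.5%. Spike-ins lay at 0.895 on the reactivated Th1 500 nM JQ1 array, above all other arrays without flavopiridol, and its part in this was not tested. Cish lost its call without the unstimulated Th2 DMSO array (1.18, adjusted p = 0.0513) or without the unstimulated Th1 context (1.33, adjusted p = 0.0538). Without the unstimulated Th2 context Cish (1.22, adjusted p = 0.09) and Socs3 (1.04, adjusted p = 0.0903) lost theirs. Socs1 lost its call in 10 of the 12 ways of leaving out an array or a context. Over all 23 alternatives Socs1 kept direction and call in 6, Cish in 17 and Socs3 in 19. Between Th1 and Th2 cells the JQ1 effect was called by limma for 0 members and 0 genes (1 member and 909 genes at an unadjusted p below 0.05).

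Between Th1 and Th2 cells at matched treatment, Pim2 was higher and Socs2 lower in Th1 cells. Over 10 pairs of arrays Pim2 differed by 1.06 ± 0.26 (adjusted p = 0.00862), or 2.08-fold, but was at 0.88 and not called with spike-in centring (adjusted p = 0.0508). Socs2 differed by -0.53 ± 0.17 (adjusted p = 0.0265). These 2 members called stand beside 35.7% of 13152 genes called, 17.2% higher and 18.4% lower. Of those calls 48.3% were higher, against 70% and 80.5% with spike-in centring and shift. Only the 2 DMSO pairs shared a slide, and the other 8, with all 4 flavopiridol pairs, did not. The Pim2 difference was 1.80 to 2.15 in the 4 flavopiridol pairs, where Th1 cells were at 1.72 to 2.20 and Th2 cells at -0.16 to 0.05, with 1 of the 4 Th2 arrays not well above background. In DMSO cells at 6 hr Pim2 was at 1.70 in unstimulated but 0.61 in reactivated Th1 cells. In the 6 pairs without flavopiridol the Pim2 difference was -0.29 to 1.33, and over these alone it was 0.44 and not called (adjusted p = 0.18). Over the same 6 pairs Pim1 (0.63, adjusted p = 0.0144) and Socs3 (0.81, adjusted p = 0.0347) were called higher in Th1 cells. Socs2 was lower in Th1 cells by 0.44 or more in 7 of 10 pairs, and lost its call without the reactivated 50 nM JQ1 pair (-0.45, adjusted p = 0.0559) and under median centring (-0.46) and both spike-in scalings (-0.39 and -0.31).

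The Th1 and Th2 difference of all 6 genes depended on stimulation when flavopiridol was left out. In unstimulated DMSO cells Cish was 1.23, Pim1 1.18, Pim2 1.33, Socs3 1.18 and Socs1 0.62 higher in Th1 cells, and Socs2 was at -0.46. In reactivated DMSO cells the differences were -0.01, 0.31, -0.18, 0.49, -0.73 and -0.73 in the same order. Put the other way, reactivation changed Cish by 2.60 to 4.29 in Th2 and by 1.34 to 2.22 in Th1 cells at 6 hr over DMSO and both JQ1 doses. Reactivation changed Socs1 by 1.23 to 1.68 in Th2 and by -0.12 to 0.73 in Th1 cells. It changed Pim2 by 0.04 to 0.42 in Th2 and by -1.09 to -0.67 in Th1 cells. The share of all genes with ranges this far apart was not counted.

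The fit of this pattern was added after its values were seen, on 12 arrays of 6 pairs, so its p-values are no independent support. The difference of Th1 minus Th2 was lower in reactivated cells for Cish by a value of -1.72 ± 0.18 (adjusted p = 0.000334), for Socs3 of -1.28 ± 0.18 (adjusted p = 0.00132), for Socs1 of -1.22 ± 0.15 (adjusted p = 0.000781), for Pim2 of -1.12 ± 0.22 (adjusted p = 0.0072), for Socs2 of -0.90 ± 0.23 (adjusted p = 0.0224) and for Pim1 of -0.72 ± 0.16 (adjusted p = 0.0117). All 6 were called, beside 19.9% of genes, 10.1% higher and 9.79% lower. All 6 were also called lower with median and both spike-in scalings, where calls were 24.4%, 6.67% and 2.68% higher against 50.8% as analysed. Without the pairing of arrays by treatment no member was called. Socs2 lost its call in 15 cases of leaving out an array or a pair, with values of -0.99 to -0.67. Pim1 lost its call in 6 such cases, at -0.64 or -0.62, all by dropping an unstimulated DMSO or 50 nM JQ1 array or pair. Marker lists changed in the same fit, with 3 of 5 Th1 markers lower (median -1.80), 4 of 5 Th2 markers lower and 1 higher (median -1.22), and 3 of 4 naive T cell markers higher (median 0.78). In Th2 cells Tbx21 and Ifng went from -0.05 to 3.34 and from 0.29 to 5.70 on reactivation with 50 nM JQ1 and from -0.05 to 0.94 and from 0.05 to 4.79 with 500 nM JQ1. Cxcr3 stayed below naive cells with 500 nM JQ1 (-0.89 and -0.40), and Il12rb2 and Il18r1 did so in DMSO cells. Their part in the result was not tested.

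**Figure D4:**
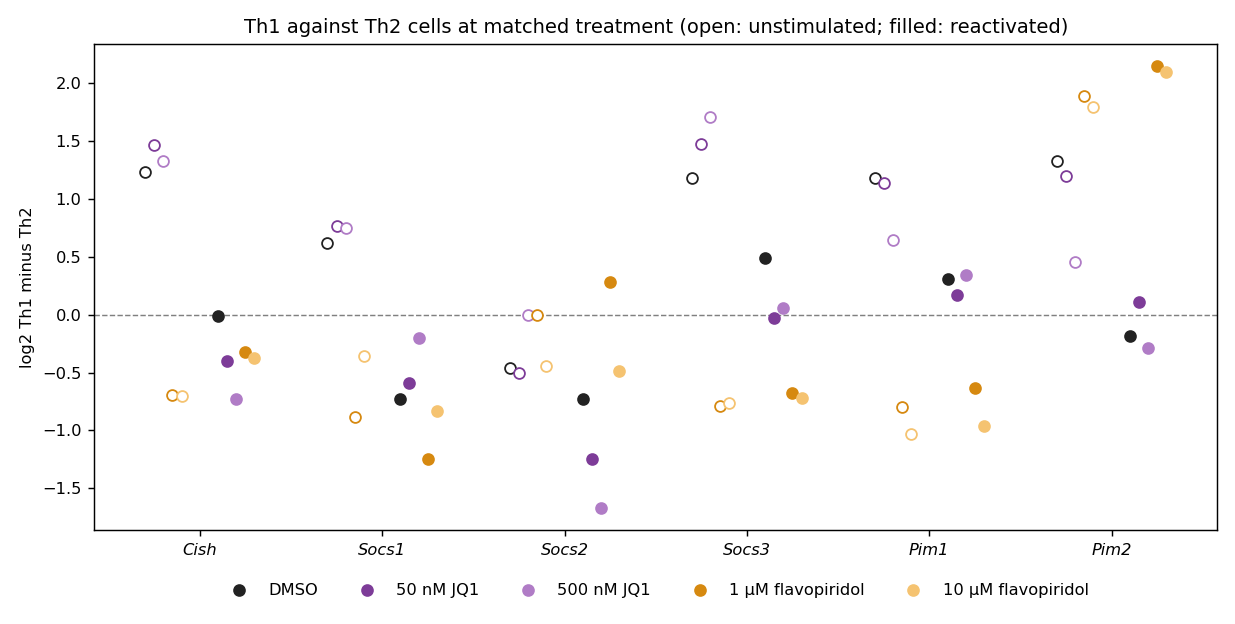
Log2 difference of Th1 minus Th2 cells (y axis) for each gene (x axis) at matched treatment; open, unstimulated; filled, reactivated; colours give the treatment; each point is 1 pair of arrays (Th2 DMSO of unclear time). Without flavopiridol, unstimulated Cish, Pim1, Pim2, Socs1 and Socs3 values are all above 0, from 0.46 to 1.71, and under flavopiridol Pim2 is the gene that stands at 1.80 to 2.15.

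Among the 6 genes, Socs1 and Pim1 followed each other most closely over the 24 arrays (Pearson r = 0.928), then Cish and Pim1 (0.798) and Socs1 and Cish (0.783). Socs2 ran against Pim1 (-0.619), and Pim2 was unrelated to Socs1 (-0.015), Pim1 (-0.064), Cish (-0.104) and Socs3 (-0.104). These values describe 24 arrays that share 1 reference and 8 flavopiridol arrays, which set much of the range. Of 8819 genes well above background on all arrays, those most like Socs1 were Btg1 (r = 0.97), Ctdp1 (0.961) and Tpst2 (0.959), and those most like Pim1 were Csrnp1 (0.973), Abtb2 (0.959) and Zfp703 (0.957). Cish was closest to Cd274, which encodes the checkpoint ligand PD-L1 (0.934), Ap1g1 (0.931) and Eral1 (0.925), and Socs3 to Prkab2 (0.753), Cd274 (0.752) and Cish (0.745). Socs2 was closest to Ankle1 (0.809), Focad (0.794) and Iscu (0.741), and Pim2 to Rras2 (0.898), Maf (0.889) and Atp5pb (0.865).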

How the data were processed

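RNA of 24 conditions was measured on 24 dual-colour Agilent arrays, 1 per condition. The deposited scanner files held median spot intensity in both channels, and the scanner software's log10 ratio. The authors also deposited log2 ratios to naive cells, whose normalization is not given in the sources used here. Cy3 held the sample and Cy5 the naive reference, with no dye swap, so a dye effect cannot be told apart from the ratio to naive cells but cancels between arrays.

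Background was corrected by normexp (offset 50) and arrays by loess, with control and outlier spots left out, in limma 3.58.1 (R 4.3.3). The brightest probe stood for a gene. Genes were named by accession through RefSeq (26437 of 55681 probes). The naive channel differed by an SD of 0.176 (log2, median of 276 array pairs), and the number of arrays limits the precision.

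Tests were limma's lmFit and eBayes with Benjamini-Hochberg adjustment and a call at an adjusted p below 0.05, for genes well above background in Cy3 on at least 3 arrays of the fit. Pairs or contexts were blocks and stood in for replicates. Groups came from the labels, and p-values measure only the spread between these arrays. Alternatives were other scalings (median, spike-in, spike-in shift), the software's and the authors' ratios, Cy3 alone, an offset of 16, the mean of all probes, no filter, no block, slide as a random block and each array or context left out. A pair of comparisons were added after the data were seen: Th1 minus Th2 by state without flavopiridol, and the reactivation response by flavopiridol dose. The named genes were the 6 members, the called genes with the largest changes of each list (up to 4) and the 3 genes most like each member. The members and lists were chosen with earlier results of these data known.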

Additional observations from a re-analysis of the deposited data

Results flagged for a closer look

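The effect of 500 nM JQ1 differed between reactivated and unstimulated cells by the fitted interaction for Socs3 (1.30 on the log2 scale, higher in reactivated cells in both cell types), Cish (1.27, both cell types) and Socs1 (0.66, both cell types), without the 24 hr arrays. In Th1 cells at 24 hr, outside this fit, Cish went the other way (-0.10 unstimulated, -0.57 reactivated). Socs3 was higher with JQ1 in both states there (0.27 unstimulated, 0.44 reactivated), and Socs1 kept its direction (-0.17 unstimulated, 0.76 reactivated). None of the 3 was called with either spike-in scaling. Socs1 was not called with median centring either (0.37).

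The Th1 minus Th2 difference without flavopiridol changed between unstimulated and reactivated cells by the fitted interaction for Cish (-1.72), Socs3 (-1.28), Socs1 (-1.22), Pim2 (-1.12), Socs2 (-0.90) and Pim1 (-0.72). This comparison was added after the values were seen, and marker lists moved in the same fit: 3 of 5 Th1 markers and 4 of 5 Th2 markers were lower, and 3 of 4 naive T cell markers higher. With 1 array per condition, no group could be examined for a single array far from the rest.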

How the results depend on the processing

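Of 640 recomputed values of the 24 called member results, 549 kept direction and call, 84 kept direction only and 7 changed sign. Of 1202 values of the 48 results not called, 29 became called in the same direction, 8 in the opposite one, and 138 changed sign without a call. The falls of Socs1, Pim1 and Cish with either dose of flavopiridol, and the rises of Cish and Pim1 on reactivation, kept direction and call under every alternative run.

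Among values called as analysed or under the alternative, those that changed sign were, with median centring, Socs2 at 10 µM flavopiridol (-0.07). With spike-in centring they were Socs2 (-0.66) and Pim2 (-1.33) at 10 µM and Socs2 (-1.01) and Pim2 (-1.13) at 1 µM flavopiridol, Socs1 at 500 nM JQ1 (-0.20), and, for JQ1 by state, Socs1 (-0.50), Pim1 (-1.09) and Pim2 (-0.93). With the spike-in shift they were Socs1 (-0.15) and Pim2 (-0.02) at 500 nM JQ1 and, for JQ1 by state, Socs1 (-0.54), Socs2 (-0.87), Pim1 (-1.16) and Pim2 (-1.17). The cause was not tested.

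The number of members called moved as follows. For 1 µM flavopiridol it was 6 with spike-in centring against 3. For 500 nM JQ1 it was 1 with median centring and both spike-in scalings, 0 without a block and 2 in Th1 contexts alone, against 4. For JQ1 by state it was 0 without a block against 3, and for flavopiridol by state 1 with slide as a block against 0. For flavopiridol by cell type it was 1 with the shift against 0. For Th1 against Th2 it was 1 with median centring, the shift, the software's ratio and no block, and 0 with spike-in centring, against 2, and for the same difference by state without flavopiridol it was 0 without a block against 6.

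Leaving out each array or context gave 2 to 4 members for reactivation, 4 to 5 and 3 to 4 for 10 and 1 µM flavopiridol, 3 to 4 and 0 to 0 for 500 and 50 nM JQ1, 0 to 2 for flavopiridol by state, 0 to 3 for JQ1 by state, 0 to 0 for either drug by cell type and for the reactivation response by flavopiridol dose, 1 to 2 for Th1 against Th2 and 4 to 6 for that difference by state. Over all genes, calls at 10 µM flavopiridol were 11331 and 10047 with spike-in centring and shift against 6111, at 1 µM 10627 with spike-in centring against 6454, and at 500 nM JQ1 902 without a block and 2870 in Th1 contexts against 6144. For 50 nM JQ1 they were 0 to 68 against 39, for flavopiridol by state 93 to 3926 against 1975, for JQ1 by state 4 to 10966 against 1308, for flavopiridol by cell type 1 to 2175 against 2, for Th1 against Th2 681 to 2669 where they moved against 4690, and by state 246 to 1519 where they moved against 2574. For the reactivation response by flavopiridol dose they were 8 with slide as a block against 0. The labels give no replicate numbers, so arrays were paired only by matched treatment, state or cell type, as in the fits above.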
